A study of Mus musculus with 9 samples.

Results

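The genes that build protein-linked sugar chains were examined in whole liver from mice lacking O-GlcNAc transferase (OGT), the nuclear and cytoplasmic enzyme that attaches single N-acetylglucosamine sugars to proteins. The set was chosen by gene symbol alone: the Alg, Mgat, Galnt, B4galt, B3galt, B3gnt, St3gal, St6gal and Fut families, numbered Man1 and Man2 mannosidases, and Dpagt1, Stt3a, Stt3b, Rpn1, Rpn2, Ddost and Dad1. It held 91 of the 24421 gene symbols counted. The symbol pattern also took in a pseudogene (Fut4-ps1), a noncoding neighbour of a mannosidase (Man2c1os) and some enzymes that act on glycolipids, proteoglycans or in lysosomes, while the Golgi mannosidase gene Man1a lacks the digit and fell outside it.

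RNA sequencing covered 4 livers of OGT-deficient C57BL/6J mice and 5 livers of wild-type littermates (WT), all 5 weeks old, of both sexes by the design text, and fasted for 6 h. How OGT was deleted, in which liver cells, and the sex of each mouse were not given in the labels or the design text. Ogt itself measured 20.6, 14.3, 17.2 and 15.6 CPM (counts relative to the scaled library total) in OGT-deficient 1 to 4, against 51.1, 54.2, 57.1, 73.1 and 72.3 CPM in WT 1 to 5, log2 fold change -1.86 (SE 0.14, adjusted p = 3.53e-07, edgeR), so each library carried the change its label names. Library totals were 32337861 to 54130901 counts, and alignments to several places, which entered no gene count, numbered 0.205 to 0.224 per gene count in OGT-deficient libraries and 0.314 to 1.02 in WT libraries; the part of this difference in the results was not tested.

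N-glycans are assembled on the lipid dolichol by DPAGT1 and the ALG enzymes, moved as a block to asparagine residues by the oligosaccharyltransferase, trimmed by mannosidases, and then branched, galactosylated, sialylated and fucosylated in the Golgi. O-GalNAc glycans start when a GALNT enzyme places N-acetylgalactosamine on serine or threonine. Hepatocytes use the N-glycan route for many of the proteins that they secrete into plasma, and the O-GalNAc route for some of them. DPAGT1, the ALG13 and ALG14 pair and the MGAT enzymes draw on UDP-N-acetylglucosamine, which is also the donor that OGT uses.

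The 300 bases around the RefSeq start sites (GRCm38.p6, 250 bases before and 50 after each start) are shown for 4 genes whose transcripts moved clearly and in different directions: Galnt10 and Man1b1, which rose, and St3gal5 and Rpn2, which fell. Capitals mark every CCAAT box (CCAAT, or ATTGG on the other strand) and every GC box (GGGCGG, or CCGCCC on the other strand). All 4 lie on the plus strand.
Galnt10, chr11:57645192-57645491: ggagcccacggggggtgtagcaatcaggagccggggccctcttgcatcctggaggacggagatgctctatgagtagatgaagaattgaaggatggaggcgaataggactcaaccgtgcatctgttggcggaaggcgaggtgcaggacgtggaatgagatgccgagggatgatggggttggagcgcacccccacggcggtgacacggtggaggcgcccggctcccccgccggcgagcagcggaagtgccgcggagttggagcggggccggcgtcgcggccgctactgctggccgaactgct
Man1b1, chr2:25332493-25332792: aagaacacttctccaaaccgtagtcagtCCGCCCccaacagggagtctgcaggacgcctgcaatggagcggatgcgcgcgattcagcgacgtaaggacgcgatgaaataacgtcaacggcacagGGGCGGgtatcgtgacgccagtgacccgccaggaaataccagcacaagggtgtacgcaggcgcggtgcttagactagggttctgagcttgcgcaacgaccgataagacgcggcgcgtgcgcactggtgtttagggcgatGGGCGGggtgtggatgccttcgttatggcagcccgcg
St3gal5, chr6:72097358-72097657: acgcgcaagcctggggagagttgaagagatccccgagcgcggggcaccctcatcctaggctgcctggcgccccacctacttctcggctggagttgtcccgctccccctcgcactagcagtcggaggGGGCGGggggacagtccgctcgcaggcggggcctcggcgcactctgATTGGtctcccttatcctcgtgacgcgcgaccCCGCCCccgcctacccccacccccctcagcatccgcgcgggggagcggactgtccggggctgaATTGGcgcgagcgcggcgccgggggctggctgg
Rpn2, chr2:157278848-157279147, the window listed first of 2: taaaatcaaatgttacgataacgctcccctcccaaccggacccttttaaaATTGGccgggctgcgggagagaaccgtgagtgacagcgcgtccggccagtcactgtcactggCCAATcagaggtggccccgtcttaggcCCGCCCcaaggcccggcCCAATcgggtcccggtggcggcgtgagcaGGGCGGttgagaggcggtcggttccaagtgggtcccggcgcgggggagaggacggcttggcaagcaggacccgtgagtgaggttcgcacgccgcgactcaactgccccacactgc
The Galnt10 window held no CCAAT box and no GC box. The Man1b1 window held 3 GC boxes and no CCAAT box. St3gal5 had 2 of each, and Rpn2 had 3 CCAAT boxes and 2 GC boxes. RefSeq windows were found for 70 of the 91 genes, and Dpagt1, Fut10 and Mgat3 were not among them. A CCAAT box was present in 40.0% of these and in 41.1% of all 27025 genes with a window, and a GC box in 74.3% against 38.2%. Windows of the set were also richer in G and C, with a median of 60.8% against 52.7% over all windows. The part of this in the GC box share was not tested. Among called genes with a window, 4 of 17 that rose and 8 of 13 that fell had a CCAAT box. The 4 genes shown therefore do not stand for all calls. Galnt11 and Man2c1 fell without a CCAAT box in any window, and Mgat4a, Alg14, Alg9 and Fut8 rose with a CCAAT box. A GC box was in 11 of the 17 and 11 of the 13. These shares were read after the changes were known, and a match of letters is not a binding site.

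Of the 91 genes, 71 passed the filter on low counts and were tested with edgeR's quasi-likelihood test, adjusted over all 14104 tested genes. In OGT-deficient liver 23 were higher (32.4%) and 18 were lower (25.4%) at an adjusted p under 0.05, so 41 of 71 were called (57.7%). These shares are near those of all tested genes, of which 61.1% were called, 31.6% higher and 29.4% lower. Higher genes thus made up 56.1% of the calls, and 68.4% (26 higher and 12 lower) with upper-quartile scaling, under which all tested genes had a median of 0.145 in log2, against 0.022 with TMM scaling. The median log2 fold change over the 71 genes was -0.03, against 0.02 over all tested genes. At least 2-fold changes were 13 upward and 2 downward, where 14.8% and 6.8% of all tested genes changed as much. The filter on low counts bears on the upward count, as given below. The groups did not overlap for 30 of the 71, where 51.3% of all tested genes did not.

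**Figure D1:**
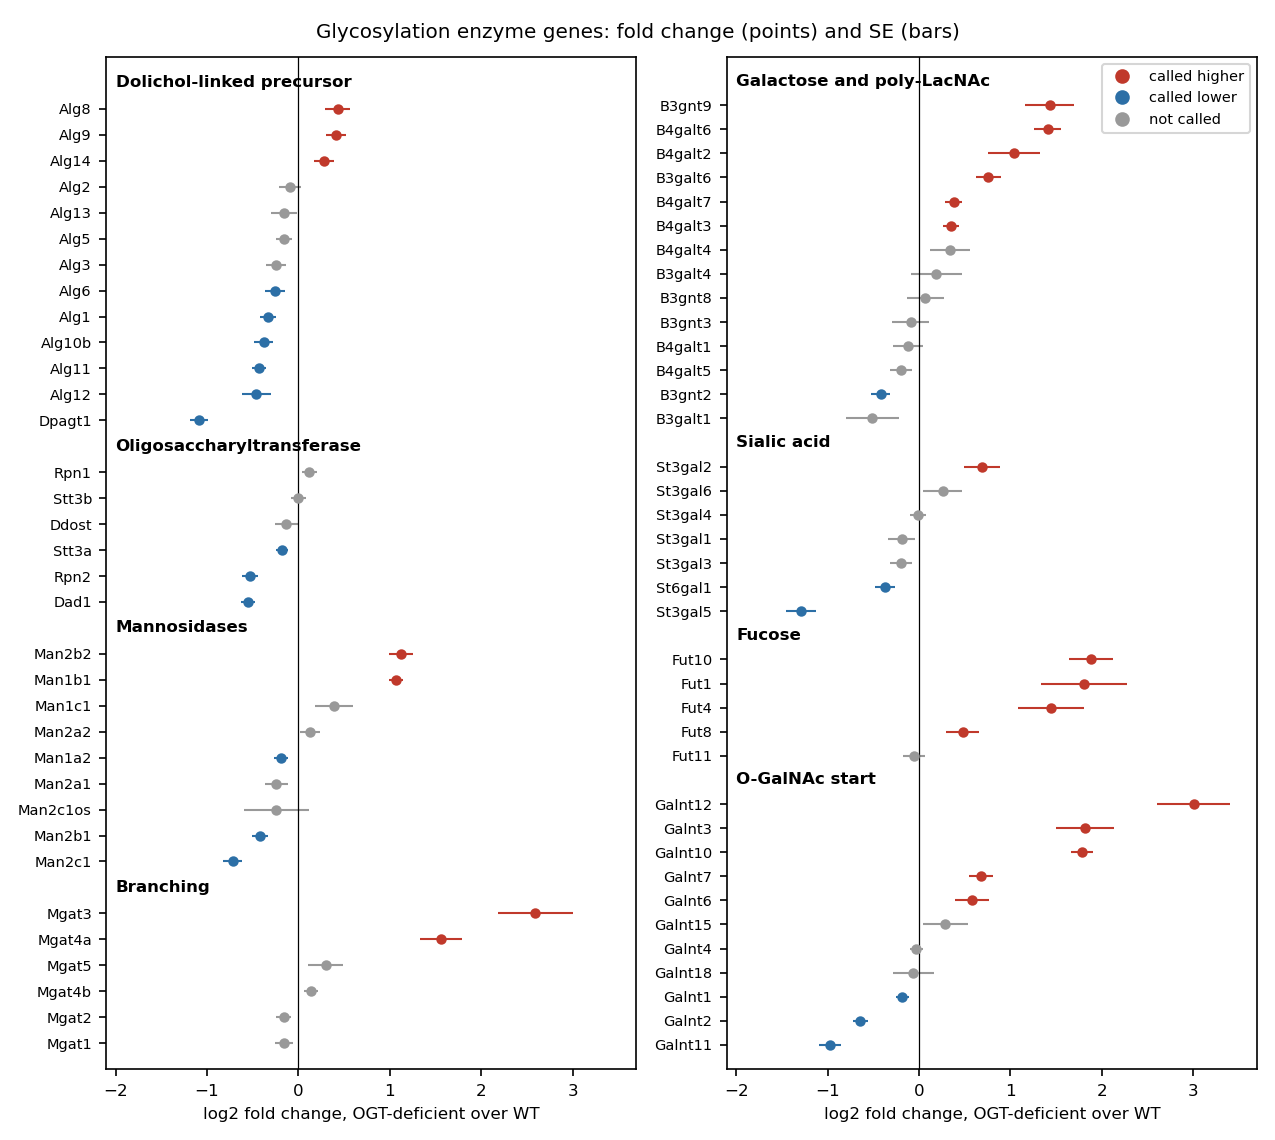
Log2 fold change of OGT-deficient over WT liver (x axis) for the 71 tested genes, by role, with bars for the SE of edgeR's estimate (4 OGT-deficient and 5 WT libraries). Red marks called rises and blue called falls. The fucosyltransferase and branching genes have calls on the right side only. The oligosaccharyltransferase subunits have calls on the left side only, although with upper-quartile scaling Rpn1 is called higher, at 0.24. Fut1, Fut4 and Mgat3 could pass the filter on low counts through their OGT-deficient libraries, which in part fixes their side.

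Calls were counted by the level of the gene. Among genes of the set under 5 CPM on average, 11 of 20 rose and 0 fell, and 9 of the 20 (45.0%) rose at least 2-fold, against 35.6% of all tested genes at that level, of which 47.7% rose and 11.1% fell. The filter bears on this count: some scarce genes, such as Galnt12, Fut1 and Mgat3, were near 0 in WT libraries and could pass it through their OGT-deficient libraries, so a rise among them is in part fixed by the filter and the count supports nothing by itself. Between 5 and 20 CPM, 8 of 16 rose and 3 fell (18.8%), against 32.4% and 29.4% of all tested genes at that level. From 20 CPM upward 4 of 35 rose (11.4%) and 15 fell (42.9%), against 19.8% and 42.5% of all tested genes at that level. The 4 were Galnt10, Man1b1 and Man2b2, which rose at least 2-fold as 3.01% of all genes at that level did, and Alg9, with a log2 fold change of 0.41.

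**Figure D2:**
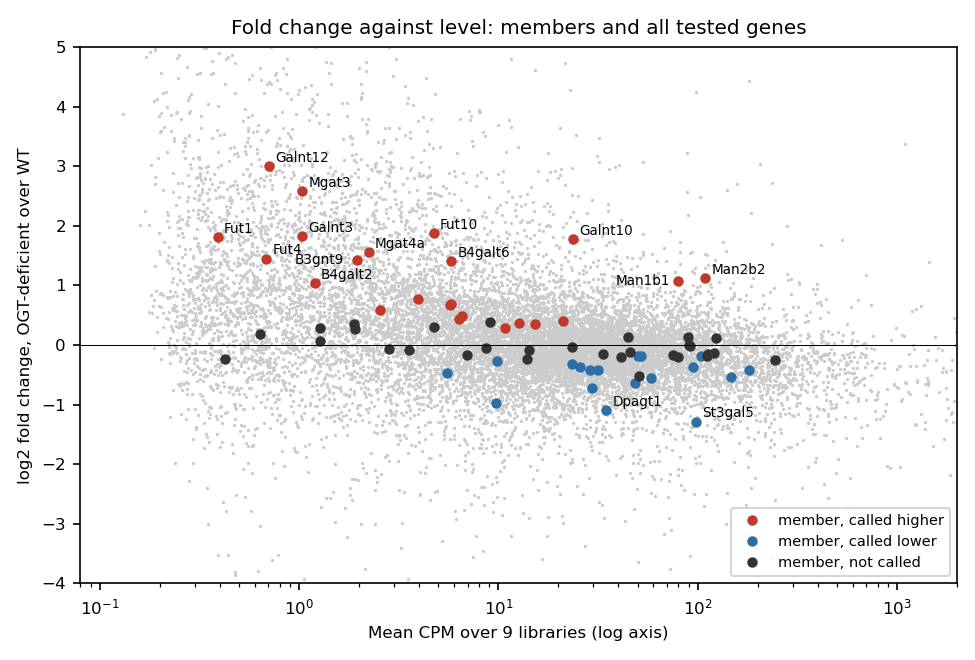
Log2 fold change of OGT-deficient over WT liver (y axis) against the mean CPM over 9 libraries (x axis, log scale), for genes of the set (coloured points) and all tested genes (grey); some grey points lie beyond the axes. Genes of the set that changed at least 2-fold upward are mostly at low levels, with Galnt10, Man1b1 and Man2b2 to the right.

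In bulk liver, fewer cells of a type and less RNA per cell cannot be told apart. Markers of several cell types moved in the same libraries. Summed hepatocyte markers (8 genes, of which 7 fell) stood at 43259 to 55119 CPM in OGT-deficient and 99234 to 118475 CPM in WT livers. All 8 bile duct markers rose, summing to 258.7, 148.9, 255.1 and 216.5 CPM in OGT-deficient 1 to 4 and 31.5 to 60.2 CPM in WT livers, where Cftr was at 0 in some libraries. All 9 stellate and myofibroblast markers rose (846.2 to 1243.8 against 154.6 to 381.6 CPM), as did 6 of 8 recruited macrophage markers (357.8 to 484.0 against 112.4 to 145.0 CPM), 3 of 3 listed neutrophil markers (31.4 to 45.8 against 5.28 to 12 CPM) and 4 of 4 cell cycle genes (50.1 to 69.1 against 6.66 to 22.6 CPM), each range given for OGT-deficient livers and then for WT livers. Kupffer cell markers (2 of 6 higher, 1 lower), endothelial markers (1 of 6 higher, 3 lower), T and NK cell markers (0 of 4 higher, 1 lower) and B and plasma cell markers (1 of 4 higher, 0 lower) overlapped between the groups in their summed levels. The part of these shifts in the results below was not tested.

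The gene for the opening step of N-glycan assembly fell. Dpagt1, which places the first sugar on dolichol phosphate and is the target of tunicamycin (chromosome 9, 44326019 to 44333900, GRCm38), measured 17.2, 22.4, 22.5 and 23.1 CPM in OGT-deficient 1 to 4, against 45.6, 43.4, 48.8, 42.9 and 46.3 CPM in WT 1 to 5. The groups were far apart, and OGT-deficient 1 was the lowest library. The log2 fold change was -1.09 (SE 0.10, adjusted p = 1.24e-06). Alg11, which adds mannose on the cytosolic face of the membrane, measured 23.4, 26.0, 22.3 and 25.2 CPM in OGT-deficient livers and 30.4, 35.1, 29.2, 33.8 and 34.2 CPM in WT livers. These groups did not overlap either (log2 fold change -0.43, SE 0.08, adjusted p = 0.000797).

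Of the 13 precursor genes, all tested, 6 fell and 3 rose, where 29.4% of all tested genes fell and 31.6% rose. The 13 average over 5 CPM. Of all tested genes 29.4% fell between 5 and 20 CPM, and 42.5% from 20 CPM upward. The median over the role was -0.24 on the log2 scale. The falls beside Dpagt1 and Alg11 were Alg12 (-0.46), Alg10b (-0.38), Alg1 (-0.33) and Alg6 (-0.26, adjusted p = 0.0496). The rises were Alg8 (0.43), Alg9 (0.41) and Alg14 (0.28), and among these and the small falls 5 calls (Alg6, Alg8, Alg9, Alg12 and Alg14) had groups that overlapped. Alg6 and Alg12 lost the call with upper-quartile scaling (adjusted p = 0.27 and 0.0721), Alg14 with the DESeq2 test (0.0512), and Alg8 without OGT-deficient 2, 3 or 4 (0.0538 to 0.0677). The calls of Alg6 and Alg14 did not survive most alternative settings. Glucose-adding steps thus differed in sign, since Alg6 and Alg10b fell and Alg8 rose. Luminal mannose steps differed too, with Alg12 lower, Alg9 higher and Alg3 at 12.7 ± 1.90 CPM in OGT-deficient and 15 ± 1.3 CPM in WT livers (log2 fold change -0.24, adjusted p = 0.0895). Alg14 and its partner Alg13, which together add the next N-acetylglucosamine, had log2 fold changes of 0.28 and -0.16 (adjusted p = 0.0430 and 0.318). Alg5 and Alg2 (-0.16 and -0.09) did not pass the test. An ER stress element (CCAAT, then CCACG after a spacer of 9 bases, on either strand of the same windows; it overlaps the CCAAT box) was found in the Alg12 window and in no other window of the set, and in 0.137% of all genes with a window. The core of the unfolded protein response element (TGACGTGG) was in no window of the set and in 0.714% of all genes with a window. Exons of Alg1 and Alg9 share bases with other genes (17.6% and 12.9%), so both values are uncertain.

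Of 15 genes outside the set that supply dolichol and mannose, 10 fell and 1 rose, where 29.4% of all tested genes fell and 31.6% rose. Their median was -0.56 on the log2 scale, against 0.02 over all tested genes. From 20 CPM upward, the level of some of the 15, 42.5% of all tested genes fell and the median was -0.16. Gmppa, a regulatory subunit of the enzyme that makes GDP-mannose, stood at 9.5 ± 0.85 CPM in OGT-deficient and 26.5 ± 3.03 CPM in WT livers (log2 fold change -1.48, SE 0.11, adjusted p = 2.37e-07). Dhdds, a subunit of the enzyme that builds the dolichol chain, fell by 0.99 on the log2 scale, and Dolpp1, the phosphatase that recycles dolichol pyrophosphate, fell by 0.98.

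Of 6 subunits of the oligosaccharyltransferase 3 fell and 0 rose, where 42.5% of all tested genes from 20 CPM upward fell and 19.8% rose. With upper-quartile scaling Rpn1 was called higher (log2 fold change 0.24, adjusted p = 0.0167). Dad1, a small subunit of the complex, measured 41.6, 49.3, 42.7 and 52.1 CPM in OGT-deficient 1 to 4, against 63.5, 70.6, 67.7, 67.3 and 70 CPM in WT 1 to 5. The log2 fold change was -0.55 (SE 0.08, adjusted p = 0.000117). Rpn2, the ribophorin II gene, measured 100.7, 129.5, 113.6 and 129.5 CPM in OGT-deficient livers and 185.5, 160.6, 165.2, 164.9 and 178.7 CPM in WT livers, log2 fold change -0.53 (SE 0.09, adjusted p = 0.000303). Neither gene overlapped between the groups. The other ribophorin gene, Rpn1, stood at 129.8 ± 7.56 CPM in OGT-deficient and 119.3 ± 9.07 CPM in WT livers (log2 fold change 0.12, adjusted p = 0.206), and Ddost at 114.6 ± 21 and 125.2 ± 12.7 CPM in OGT-deficient and WT livers (log2 fold change -0.13, adjusted p = 0.393).

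The catalytic subunit acting during translation, Stt3a, fell slightly (96.9 ± 2.78 CPM in OGT-deficient and 109.6 ± 6.40 CPM in WT livers, log2 fold change -0.18, adjusted p = 0.0469), a call that did not survive most alternative settings. Its paralog Stt3b, which can act after translation, stood at 89.8 ± 4.86 CPM in OGT-deficient and 90.0 ± 6.79 CPM in WT livers (adjusted p = 0.972). The ratio of Stt3a to Stt3b within a library overlapped between the groups (a difference of -0.17 in log2, two-sided exact permutation p = 0.0635, adjusted 0.114 over 9 ratios). Per kilobase of annotated exon, Ddost was the highest of the 6 subunits in both groups, at 54.1 CPM per kilobase in OGT-deficient and 59.1 in WT livers. Among 6 accessory subunit genes that were counted, 3 rose and 2 fell, where 31.6% of all tested genes rose and 29.4% fell. Most of the 6 average over 20 CPM, where 19.8% of all tested genes rose and 42.5% fell. Tusc3, an oxidoreductase of the STT3B form, rose by 0.63, and Krtcap2, of the STT3A form, by 0.41 on the log2 scale. Ost4 rose by 1.41. Other genes cover 53.2% of the exonic bases of Ost4 and 15.7% of those of Krtcap2, so both values are uncertain. The falls, named after their values were seen, were Magt1 and Tmem258 (-0.37, adjusted p = 0.0227). Magt1, the paralog of Tusc3, fell to 47.7 ± 4.63 CPM in OGT-deficient livers, against 67.4 ± 9.29 CPM in WT livers, without overlap (log2 fold change -0.50, adjusted p = 0.00152), and per kilobase of exon it was the more abundant of the pair in both groups (10.2 and 3.77 CPM per kilobase for Magt1 and Tusc3 in OGT-deficient livers, 14.4 and 2.42 in WT livers).

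**Figure D3:**
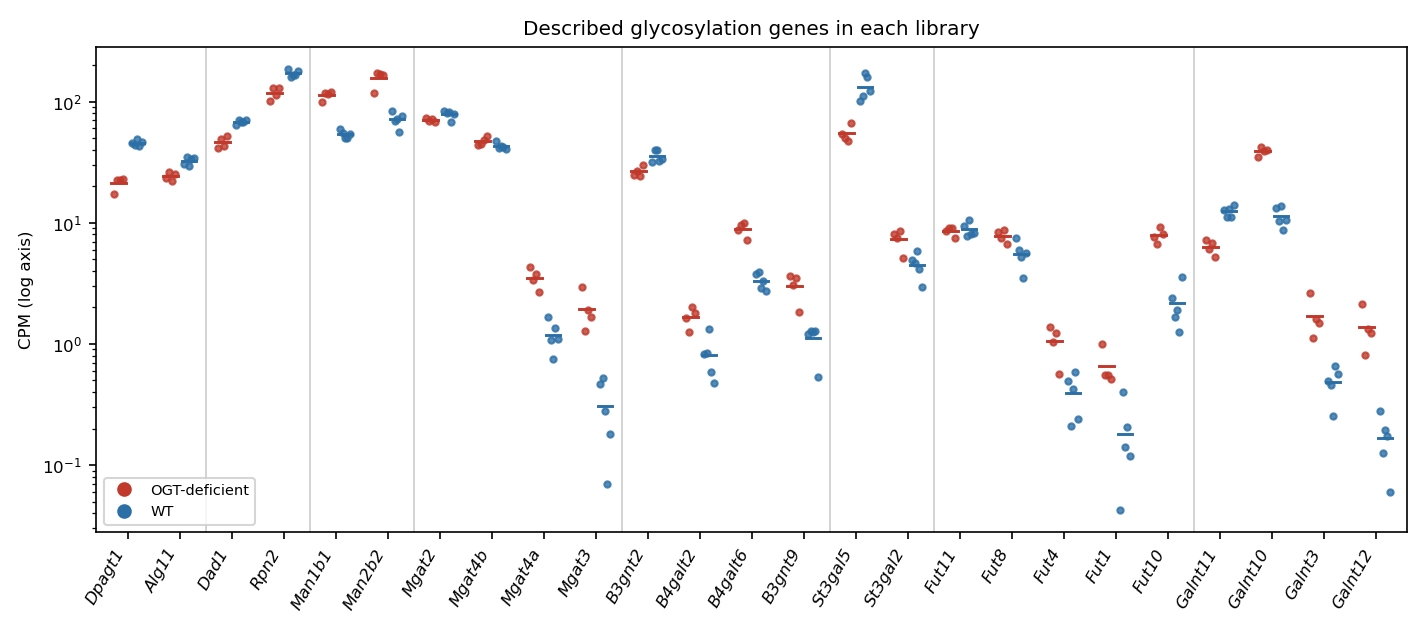
Level of the 25 genes described singly (CPM, log axis) in each library, OGT-deficient to the left of WT for each gene, with group means as bars and vertical lines between roles. Dpagt1, St3gal5 and Galnt11 lie lower in OGT-deficient livers, and Man1b1, Man2b2, Galnt10 and Fut10 lie higher, without overlap.

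Mannosidase genes moved in both directions, also within a compartment. Man1b1, the ER mannosidase that marks misfolded glycoproteins for disposal, measured 99.8, 116.8, 115.1 and 120.0 CPM in OGT-deficient 1 to 4, against 59.6, 55.2, 49.6, 49.7 and 54.4 CPM in WT 1 to 5. Every OGT-deficient library was well above every WT library (log2 fold change 1.07, SE 0.08, adjusted p = 5.12e-07). Man2b2, a lysosomal alpha-mannosidase, measured 116.6, 171.3, 169.9 and 164.5 CPM in OGT-deficient livers and 83.8, 69.5, 72.1, 56.1 and 75.4 CPM in WT livers. OGT-deficient 1 was lower than the other 3 but above all WT libraries, and the log2 fold change was 1.12 (SE 0.13, adjusted p = 1.29e-05).

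The relatives of these genes did not follow. Man2b1, the principal lysosomal alpha-mannosidase, fell to 153.2 ± 8.17 CPM in OGT-deficient livers, against 204.3 ± 23.1 CPM in WT livers (log2 fold change -0.42, adjusted p = 0.00202). Man2c1, the cytosolic enzyme that degrades free oligosaccharides, fell by 0.72 (adjusted p = 6.64e-05), and the Golgi enzyme gene Man1a2 by 0.19 (adjusted p = 0.0494). The Golgi genes Man2a1 (-0.24, adjusted p = 0.107), Man2a2 (0.13, adjusted p = 0.316) and Man1c1 (0.39, adjusted p = 0.133), and the noncoding Man2c1os (-0.24, adjusted p = 0.583), did not pass the test. Man1a, outside the set, stood at 264.2 ± 7.90 CPM in OGT-deficient and 277.3 ± 6.42 CPM in WT livers (adjusted p = 0.393). The ratios of Man2a1 to Man2a2 (difference -0.37, exact permutation p = 0.111, adjusted 0.143) and of Man1a to Man1a2 (0.12, p = 0.127, adjusted 0.143) overlapped between the groups. Counting all 9 mannosidase entries, 2 rose and 3 fell, where 31.6% of all tested genes rose and 29.4% fell. Most of the 9 average over 20 CPM, where 19.8% of all tested genes rose and 42.5% fell. With upper-quartile scaling Man2a2 was called higher (0.25, adjusted p = 0.0488) and Man1a2 was not called (adjusted p = 0.494). Man1a2 also lost its call in most other alternative settings.

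Other trimming and quality control genes of the ER, 17 outside the set, also split: 4 rose and 8 fell. Most of the 17 average over 20 CPM, where 19.8% of all tested genes rose and 42.5% fell, so these counts are near the shares at that level. Among all tested genes 31.6% rose and 29.4% fell. Mogs, glucosidase I, which removes the outermost glucose after transfer, rose by 0.80 (120.2 ± 19.1 CPM in OGT-deficient and 69.0 ± 6.72 CPM in WT livers, adjusted p = 6.36e-05). The Golgi endomannosidase gene Manea fell by 0.97 on the log2 scale, and Edem2, an ER mannosidase of the disposal pathway, fell by 0.45.

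Among the genes that branch N-glycans, the called changes were at scarce members. Mgat3, which adds the bisecting N-acetylglucosamine and thereby limits further branching, measured 2.93, 1.29, 1.91 and 1.66 CPM in OGT-deficient 1 to 4, against 0.470, 0.525, 0.281, 0.0694 and 0.179 CPM in WT 1 to 5. The groups did not overlap, and OGT-deficient 1 was the highest library. The log2 fold change was 2.59 (SE 0.41, adjusted p = 0.000142), from 358 counts in 4 OGT-deficient and 65 counts in 5 WT libraries. Mgat4a, which adds a further antenna, measured 4.30, 3.35, 3.77 and 2.69 CPM in OGT-deficient livers and 1.67, 1.07, 0.757, 1.35 and 1.10 CPM in WT livers (log2 fold change 1.56, SE 0.23, adjusted p = 8.31e-05).

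The abundant branching genes did not pass the test with TMM scaling and all libraries. Mgat2, which opens the antenna on the other arm, measured 72.6, 69.3, 71.2 and 67.3 CPM in OGT-deficient livers and 82.9, 80.4, 82.6, 68.2 and 78.3 CPM in WT livers, where only WT 4 reached into the OGT-deficient range (log2 fold change -0.16, SE 0.08, adjusted p = 0.0831, or 0.0254 without WT 4). Mgat4b, the paralog of Mgat4a, measured 43.8, 44.6, 48.0 and 52.4 CPM in OGT-deficient livers and 47.5, 41.3, 42.6, 42.0 and 40.5 CPM in WT livers (log2 fold change 0.14, SE 0.08, adjusted p = 0.142, or 0.0113 with upper-quartile scaling). Mgat1, which opens the route to complex glycans (-0.16, adjusted p = 0.178), and Mgat5 (0.30, adjusted p = 0.186) did not pass either. Of 6 tested branching genes 2 rose and 0 fell, where 31.6% of all tested genes rose and 29.4% fell. Mgat3 could pass the filter on low counts through its OGT-deficient libraries, so its rise is in part fixed by the filter. Mgat1, Mgat2 and Mgat4b together kept most of the family's level per kilobase: 32.9, 39.7 and 25.6% in OGT-deficient and 34.9, 42.2 and 22.1% in WT livers.

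Ratios of 2 genes within a library separated the groups for 4 of 9 pairs. Taken singly, 51.3% of all tested genes did not overlap between the groups. The pairs were chosen with earlier results of these data known, so the p-values below are no fresh test. The ratios of Mgat3 to Mgat1 and of Fut8 to Mgat3 share Mgat3, so they are not separate results. Mgat3 could pass the filter on low counts through its OGT-deficient libraries. The separation of both its ratios is thus in part fixed by the filter and supports nothing by itself. The log2 ratio of Mgat4a to Mgat4b (each CPM plus 0.5) was -3.58 ± 0.35 in OGT-deficient and -4.70 ± 0.25 in WT livers (SD, n = 4 and 5). The ratio of Mgat3 to Mgat1 was -5.47 ± 0.51 in OGT-deficient and -7.23 ± 0.25 in WT livers. Fut8, the core fucosyltransferase whose reaction the bisecting sugar blocks, stood to Mgat3 at 1.80 ± 0.33 in OGT-deficient and 2.92 ± 0.20 in WT livers. Mgat3 was near or below the added 0.5 CPM in WT libraries, so the size of both its differences, 1.75 against Mgat1 and -1.11 for Fut8, depends on that addition: with 0.1 CPM added they were 2.59 and -1.91. All 3 ratios and that of Galnt2 to Galnt1, given below, reached the lowest exact permutation p possible for this number of libraries (two-sided, p = 0.0159), or 0.0357 when adjusted over the 9 ratios. With any library left out they lost the call, since the smallest possible p is then larger.

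**Figure D4:**
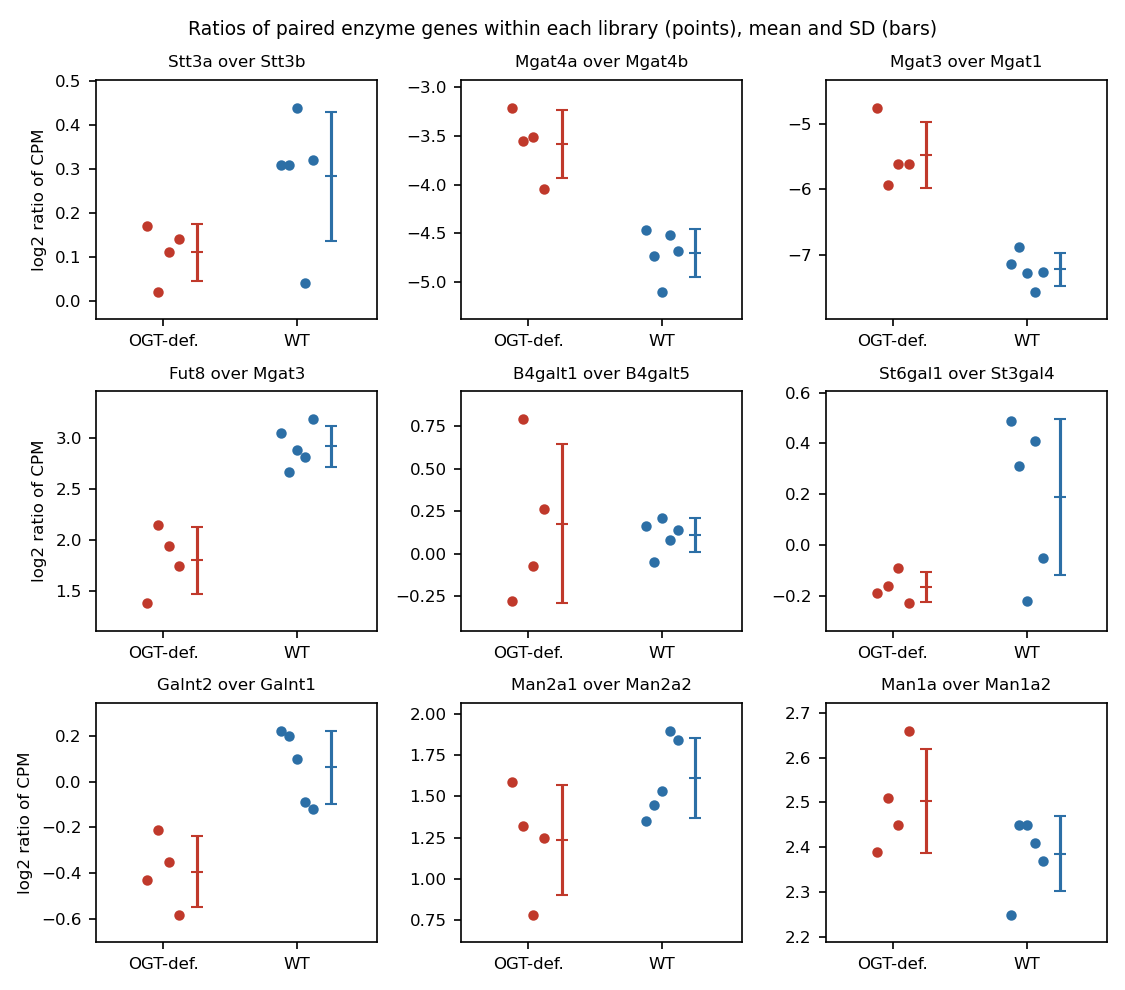
Log2 ratio of 2 genes' CPM (each plus 0.5) within each library for the 9 pairs (y axes differ), OGT-deficient libraries left of WT, with mean and SD (n = 4 and 5). The groups are apart for Mgat4a over Mgat4b, Mgat3 over Mgat1, Fut8 over Mgat3 and Galnt2 over Galnt1. Mgat3 could pass the filter on low counts through its OGT-deficient libraries, which in part fixes the side of both its ratios.

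Among galactose and poly-N-acetyllactosamine enzymes 6 of 14 tested genes rose and 1 fell, where 31.6% of all tested genes rose and 29.4% fell. Many of the 14 average under 5 CPM, where 47.7% of all tested genes rose and 11.1% fell. B4galt6, a lactosylceramide synthase that acts on glycolipids, measured 8.64, 9.65, 9.98 and 7.27 CPM in OGT-deficient 1 to 4, against 3.76, 3.95, 2.92, 3.29 and 2.71 CPM in WT 1 to 5, log2 fold change 1.41 (SE 0.15, adjusted p = 5.14e-06). B3gnt9, of the family that adds N-acetylglucosamine to galactose, measured 3.63, 3.05, 3.52 and 1.84 CPM in OGT-deficient livers and 1.2, 1.28, 1.26, 1.28 and 0.537 CPM in WT livers (log2 fold change 1.43, SE 0.27, adjusted p = 0.000601). Its groups stayed apart although OGT-deficient 4 was the lowest of its group. B4galt2, a galactosyltransferase gene, measured 1.64, 1.26, 2.02 and 1.79 CPM in OGT-deficient livers and 0.833, 0.840, 1.32, 0.590 and 0.477 CPM in WT livers, with WT 3 above OGT-deficient 2 (log2 fold change 1.04, SE 0.28, adjusted p = 0.00683). Other genes share 16.5% of the exonic bases of B3gnt9 and 28.2% of those of B4galt2, so both are uncertain.

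B3gnt2, the principal poly-N-acetyllactosamine synthase, was the single gene of this role that fell. It measured 24.8, 26.6, 24.4 and 30.2 CPM in OGT-deficient livers and 31.7, 40.0, 40.0, 32.3 and 33.3 CPM in WT livers (log2 fold change -0.42, SE 0.10, adjusted p = 0.00310). The proteoglycan linker genes B3galt6 (0.76, adjusted p = 0.000378) and B4galt7 (0.38, adjusted p = 0.00331) rose, as did B4galt3 (0.35), which is uncertain because other genes cover 14.5% of its exonic bases. The abundant galactosyltransferase genes B4galt1, B4galt5 and B3galt1 did not pass the test. B4galt1 stood at 43.8 ± 11.6 CPM in OGT-deficient and 47.6 ± 6.93 CPM in WT livers, and B4galt5 at 38.1 ± 6.62 CPM in OGT-deficient and 43.9 ± 4.28 CPM in WT livers. Their ratio differed by 0.07 in log2 (exact permutation p = 0.778, adjusted 0.778). B3galt1 varied within both groups, from 26.7 to 60.6 CPM in OGT-deficient and from 35.3 to 94.4 CPM in WT livers (log2 fold change -0.51, SE 0.29, adjusted p = 0.149). B4galt4, B3galt4, B3gnt8 and B3gnt3, all under 5 CPM on average, also did not pass.

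Among sialyltransferases the clear change was in a glycolipid enzyme. St3gal5, the synthase of the ganglioside GM3 (chromosome 6, 72097592 to 72154571), measured 54.3, 49.9, 47.1 and 66.8 CPM in OGT-deficient 1 to 4, against 101.0, 111.2, 172.0, 159.0 and 121.7 CPM in WT 1 to 5. The highest OGT-deficient library lay below the lowest WT library (log2 fold change -1.29, SE 0.16, adjusted p = 2.53e-05). St3gal2, which sialylates O-glycans and gangliosides, measured 8.07, 7.49, 8.55 and 5.12 CPM in OGT-deficient livers and 4.91, 4.68, 5.86, 4.13 and 2.95 CPM in WT livers. It rose by 0.69 on the log2 scale (SE 0.20, adjusted p = 0.00822), with WT 3 above OGT-deficient 4.

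St6gal1, which gives plasma glycoproteins their alpha-2,6 sialic acid, fell to 81.2 ± 7.05 CPM in OGT-deficient livers, against 105.2 ± 16.4 CPM in WT livers (log2 fold change -0.37, adjusted p = 0.0122), with overlap and without a call under upper-quartile scaling (adjusted p = 0.0614). Apart from St3gal5 and St3gal2, given above, the genes for alpha-2,3 sialylation did not pass the test. St3gal4 stood at 91.3 ± 8.66 CPM in OGT-deficient and 91.9 ± 8.15 CPM in WT livers. St3gal3 (-0.20, adjusted p = 0.143), St3gal1 (-0.19, adjusted p = 0.293) and St3gal6 (0.26, adjusted p = 0.302) were not called. Other genes cover 14.1% of the exonic bases of St3gal4 and 26.0% of those of St3gal6, so both are uncertain. The ratio of St6gal1 to St3gal4 overlapped between the groups (difference -0.35, exact permutation p = 0.0952, adjusted 0.143). Per kilobase of exon, the 8 genes summed to 112.0 ± 11.2 CPM per kilobase in OGT-deficient and 152.5 ± 10.7 in WT livers. St3gal5 made up 18.7 ± 3% of that sum in OGT-deficient livers and 33.1 ± 5.60% in WT livers, and it was the highest of the 8 in WT livers, while in OGT-deficient livers St3gal4 was highest, at 27.9 ± 0.863% in OGT-deficient and 20.7 ± 2.14% in WT livers.

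Fucosyltransferase genes rose or did not pass the test, and none fell, where 29.4% of all tested genes fell. Fut1 and Fut4 were scarce in WT livers and could pass the filter on low counts through their OGT-deficient libraries. A rise of these genes is in part fixed by the filter, so the absence of falls supports nothing by itself. Fut10, a relative of the alpha-1,3 fucosyltransferases, measured 7.69, 6.73, 9.18 and 8.15 CPM in OGT-deficient 1 to 4, against 2.41, 1.66, 1.91, 1.25 and 3.55 CPM in WT 1 to 5, log2 fold change 1.88 (SE 0.24, adjusted p = 2.46e-05). Fut8 measured 8.41, 7.43, 8.75 and 6.73 CPM in OGT-deficient livers and 7.5, 5.96, 5.25, 3.50 and 5.66 CPM in WT livers. Its groups overlapped at WT 1, and the rise of 0.48 on the log2 scale (SE 0.18, adjusted p = 0.0336) lost its call when any of WT 3, WT 5, OGT-deficient 1 or OGT-deficient 3 was left out (adjusted p = 0.0536 to 0.0906). Fut4, which makes Lewis X structures, measured 1.39, 1.03, 1.22 and 0.563 CPM in OGT-deficient livers and 0.491, 0.210, 0.421, 0.590 and 0.238 CPM in WT livers (log2 fold change 1.45, SE 0.36, adjusted p = 0.00398), and WT 4 lay just above OGT-deficient 4. Fut1, which makes the H antigen, measured 0.991, 0.554, 0.553 and 0.514 CPM in OGT-deficient livers and 0.0427, 0.399, 0.140, 0.208 and 0.119 CPM in WT livers, log2 fold change 1.81 (SE 0.47, adjusted p = 0.00525) from 119 and 36 counts in OGT-deficient and WT libraries.

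Fut11, a close relative of Fut10, measured 8.49, 8.97, 9.13 and 7.42 CPM in OGT-deficient livers and 9.44, 7.71, 10.6, 8.12 and 8.23 CPM in WT livers (log2 fold change -0.05, SE 0.12, adjusted p = 0.717). Fut10 and Fut11 therefore stood closer together in OGT-deficient livers, at 30.3 ± 3.77 and 38.2 ± 2.64% of the family's level per kilobase, against 12.4 ± 4.46 and 60.6 ± 5.20% in WT livers. The summed family level per kilobase was 5.24 ± 0.528 CPM in OGT-deficient and 3.43 ± 0.427 CPM in WT livers, and these groups did not overlap (4.63 to 5.83 against 2.88 to 3.83).

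The genes that start O-GalNAc glycans changed in mixture more than in sum. Galnt10, a transferase that prefers peptides already carrying N-acetylgalactosamine (chromosome 11, 57645442 to 57787514), measured 34.7, 41.8, 39.4 and 40.0 CPM in OGT-deficient 1 to 4, against 13.2, 10.3, 13.7, 8.77 and 10.6 CPM in WT 1 to 5. No library of either group came near the other group (log2 fold change 1.78, SE 0.12, adjusted p = 2.01e-07). Galnt11 measured 7.17, 6.12, 6.76 and 5.26 CPM in OGT-deficient livers and 12.7, 11.2, 13.1, 11.2 and 13.9 CPM in WT livers, log2 fold change -0.97 (SE 0.12, adjusted p = 1.87e-05). Galnt2, whose human form glycosylates regulators of plasma lipids, measured 38.2, 39.9, 36.7 and 33.0 CPM in OGT-deficient livers and 63.2, 60.8, 58.4, 52.9 and 53.4 CPM in WT livers (log2 fold change -0.64, SE 0.08, adjusted p = 3.37e-05).

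A pair of scarce genes rose several-fold, of which Galnt12 could pass the filter on low counts through its OGT-deficient libraries. Galnt12 measured 2.15, 0.806, 1.33 and 1.22 CPM in OGT-deficient livers and 0.278, 0.126, 0.196, 0.173 and 0.0596 CPM in WT livers, log2 fold change 3.01 (SE 0.40, adjusted p = 3.52e-05) from 254 and 33 counts in OGT-deficient and WT libraries. Galnt3, which protects the hormone FGF23 from cleavage in bone, measured 2.63, 1.11, 1.6 and 1.49 CPM in OGT-deficient livers and 0.491, 0.462, 0.252, 0.659 and 0.566 CPM in WT livers (log2 fold change 1.82, SE 0.32, adjusted p = 0.000306). For Galnt12, Galnt3 and Mgat3, OGT-deficient 1 was the highest library and OGT-deficient 2 the lowest of the 4. Summed bile duct markers, given above, had the same extremes, a likeness seen after the values were known. It is not particular to them. Summed hepatocyte markers were the reverse, lowest in OGT-deficient 1 (43259 CPM) and highest in OGT-deficient 2 (55119 CPM). Recruited macrophage and neutrophil sums were also highest in OGT-deficient 1 (484.0 and 45.8 CPM) but lowest in OGT-deficient 4. Stellate and cell cycle sums were highest in OGT-deficient 3. The part of any of these cells in the result was not tested.

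Of 11 tested Galnt genes 5 rose and 3 fell, where 31.6% of all tested genes rose and 29.4% fell. Galnt7, which like Galnt10 prefers glycopeptides, rose by 0.68 (adjusted p = 0.000737) and Galnt6 by 0.58 (adjusted p = 0.0181), while Galnt1 fell by 0.18 on the log2 scale (adjusted p = 0.0367). Galnt1 lost the call with upper-quartile scaling (adjusted p = 0.497) and in several other alternative settings. Galnt6 lost it without OGT-deficient 2 (adjusted p = 0.0796). Galnt4, at 23.0 ± 1.39 CPM in OGT-deficient and 23.6 ± 0.823 CPM in WT livers, Galnt15 (0.29, adjusted p = 0.332) and Galnt18 (-0.06, adjusted p = 0.816) did not pass. The log2 ratio of Galnt2 to Galnt1 was -0.39 ± 0.15 in OGT-deficient and 0.06 ± 0.16 in WT livers, without overlap. Summed per kilobase of exon, the 16 genes of the family stood at 34.0 ± 1.52 CPM in OGT-deficient and 34.8 ± 1.47 CPM in WT livers. Within that sum Galnt10 held 19.3 ± 1.99% in OGT-deficient livers and 5.44 ± 0.811% in WT livers, Galnt2 held 25.4 ± 1.17% in OGT-deficient and 38.8 ± 1.70% in WT livers, and Galnt1 held 26.0 ± 1.56% in OGT-deficient and 28.8 ± 2.08% in WT livers. Galnt4 held 13.3 ± 0.243% in OGT-deficient and 13.3 ± 0.549% in WT livers. The order of these genes was thus Galnt2, Galnt1, Galnt4 and Galnt10 in WT livers, and in OGT-deficient livers Galnt1 and Galnt2, which did not differ beyond their spread, were followed by Galnt10 and Galnt4. These shares rest on annotated exon lengths and carry no test.

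**Figure D5:**
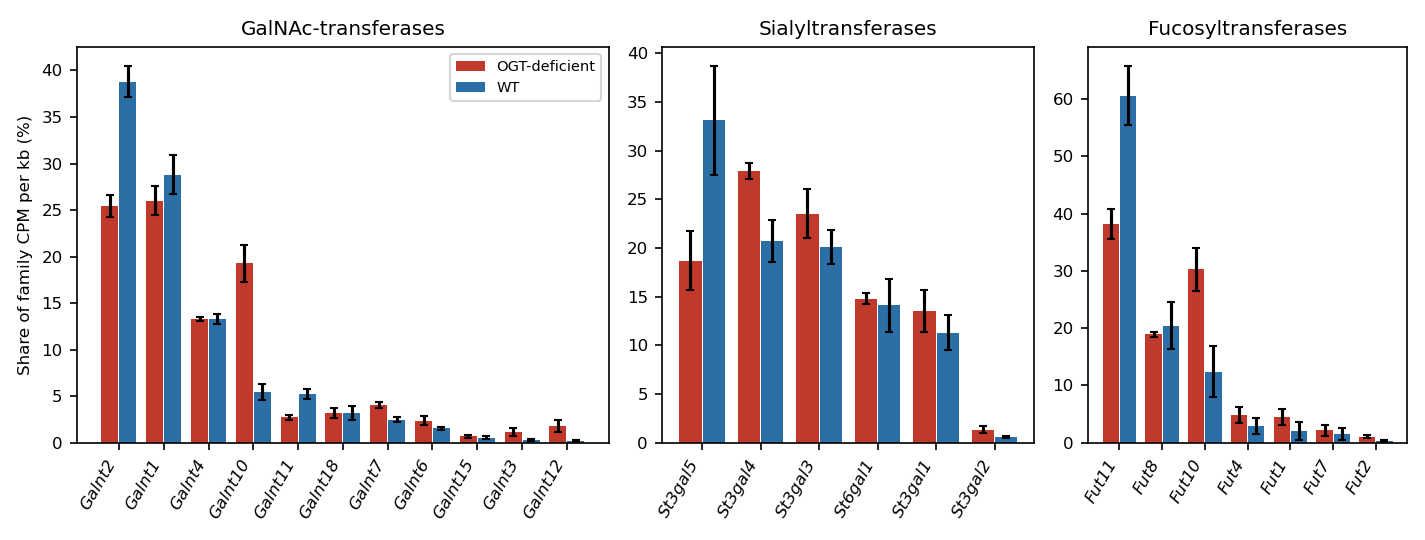
Share of each family's summed level per kilobase of exon (%, bars, with SD over n = 4 OGT-deficient and 5 WT livers) for GalNAc-transferases, sialyltransferases and fucosyltransferases; genes under 0.5% in both groups are left out. Galnt10, St3gal4 and Fut10 take larger shares in OGT-deficient livers, and Galnt2, St3gal5 and Fut11 smaller ones. A share also moves when other genes of the sum change: St3gal4 and Fut11 themselves were not called (log2 fold changes -0.01 and -0.05).

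The steps around O-GalNAc initiation were also mixed. Of 11 tested genes for O-glycan cores and further sialylation 4 rose and 4 fell. Among all tested genes 31.6% rose and 29.4% fell. St6galnac6, a sialyltransferase of gangliosides, stood at 33.7 ± 5.21 CPM in OGT-deficient and 67.0 ± 8.44 CPM in WT livers (log2 fold change -0.99, adjusted p = 1.50e-05). C1galt1c1, the chaperone that the core 1 enzyme needs, fell by 0.69, and Gcnt1, which makes the core 2 branch, rose by 1.95 on the log2 scale (1.65 ± 0.200 CPM in OGT-deficient and 0.430 ± 0.122 CPM in WT livers, adjusted p = 3.10e-05).

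Donor sugars showed rises and falls as well. Of 17 genes for sialic acid, fucose and galactose donors and their Golgi carriers 7 rose and 4 fell. Among all tested genes 31.6% rose and 29.4% fell. Nans, sialic acid synthase, rose by 1.06 (other genes cover 29.6% of its exonic bases, so the value is uncertain). Tsta3, which completes GDP-fucose, stood at 14.3 ± 2.52 CPM in OGT-deficient and 30.3 ± 2.47 CPM in WT livers (log2 fold change -1.09, adjusted p = 6.01e-06). Of the other genes of fucose supply, named after their values were seen, some rose and some were not called. Gmds, which acts in the step before Tsta3, rose by 1.19 (adjusted p = 4.28e-05), Fuk, of fucose salvage, by 0.42 (adjusted p = 0.000813), and the carrier gene Slc35c2 by 0.63 (adjusted p = 0.00106), all on the log2 scale. Fpgt, also of fucose salvage (-0.13, adjusted p = 0.283), and the carrier gene Slc35c1 (-0.31, adjusted p = 0.0639) were not called.

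The 20 genes of the set that failed the filter on low counts reached at most 0.422 CPM in any library. Fut4-ps1, Galnt13, Mgat4c, Mgat4d, Mgat5b and St6gal2 had 0 counts in all 9 libraries, which allows up to 0.0554 to 0.0928 CPM (3 counts) per library. Among the others Fut2, a maker of H antigen in epithelia, stood at 0.220 to 0.362 CPM in OGT-deficient and 0 to 0.107 CPM in WT livers without overlap, and the groups overlapped for B3galt2, B3galt5, B3gnt4 to B3gnt7, Fut7, Fut9, Galnt5, Galnt9, Galnt14, Galnt16 and Mgat4e.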

How the data were processed

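Total RNA from whole liver was sequenced in 9 libraries. The authors deposited, per library, whole-number read counts for 24421 gene symbols and 5 summary lines; the counts are not normalized. The tools named per the submitters' processing notes are HTSeq 0.9.1 and TopHat2 2.1.0, and the build is mm10 (GRCm38). Neither the annotation release nor the strand setting is stated in the labels, so reads of genes overlapping on opposite strands cannot be told apart. The summary lines stayed out of totals and tests; reads outside genes were 8.95 to 10.72% and reads overlapping several genes 1.78 to 2.17% of uniquely aligned reads.

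Gene tests used edgeR 4.0.16 (R 4.3.3): filterByExpr, TMM scaling, and quasi-likelihood F tests of genotype with no covariate. P-values of the 14104 genes kept were adjusted together by Benjamini-Hochberg, and 0.05 was the threshold. CPM use TMM-scaled totals. P-values measure the spread between these libraries; the design text gives as many mice as libraries. Within-group pairs of libraries differed far beyond sampling noise (chi-square per degree of freedom 23.9 to 135.0), so none was counted as a duplicate. Levels per kilobase use the union of GENCODE mouse release 21 exons. Pair ratios were tested with scipy 1.17.1 by two-sided exact permutation, and floors of 3 counts cover counting error only. Simulated counts with known changes were run through the same code as a check. Figures use matplotlib 3.10.9.

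The members, lists and pairs were chosen with earlier results of these data known. Described singly are, per role, called genes with at least a 2-fold change and the 2 genes of smallest p at a mean of at least 5 CPM; the 3 of smallest p are named per wider list (1 of them is not reported here), and other members by their counts or as isozymes. Alternatives were DESeq2 size factors, upper-quartile factors, no filter, DESeq2 1.42.0, the replicate number as a block, a pseudocount of 0.1, and leaving out each library.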

Additional observations from a re-analysis of the deposited data

Results flagged for a closer look

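In 4 cases a library stood apart from the rest of its own group, measured as its gap to the nearest library over the range of the group; 68 groups of values were examined, and chance alone marks about 1 in 20. Dpagt1 in OGT-deficient livers had a gap of 0.886 of the range, with OGT-deficient 1 at 17.2 CPM and the others at 22.4 to 23.1 CPM. Man2b2 in OGT-deficient livers had a gap of 0.875, with the same library at 116.6 CPM and the others at 164.5 to 171.3 CPM. Fut1 in OGT-deficient livers had a gap of 0.915, with that library at 0.991 CPM and the others at 0.514 to 0.554 CPM. B3gnt9 in WT livers had a gap of 0.884, with WT 5 at 0.537 CPM and the others at 1.2 to 1.28 CPM. Leaving out the library in question kept the call and direction of each gene, and log2 fold changes without any single library were -1.16 to -1.02 for Dpagt1, 1.05 to 1.22 for Man2b2, 1.52 to 2.41 for Fut1 and 1.26 to 1.58 for B3gnt9.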

How the results depend on the processing

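Over the 14 alternatives, 20 to 26 genes of the set were higher (23 as given) and 12 to 18 lower (18 as given). Of 350 alternative values for the 25 genes described singly, 342 kept their direction and side of the threshold. These genes were picked by fold change or p in the main test, so this stability is in part fixed by the choice. It does not hold for the rest of the set: Alg6, Alg14, Stt3a, Man1a2 and Galnt1, for example, lost their call in many settings. Mgat4b was called with upper-quartile factors (0.26) and Mgat2 without WT 4 (-0.21). Fut11, not called in any setting, changed sign with upper-quartile factors (0.07) and without WT 3 (0.02), with a range of -0.10 to 0.02 over libraries left out; Fut8 is given above. With the replicate number as a block 21 were higher and 14 lower, and 6 small changes lost their call (Alg14, Alg6, Galnt1, Galnt6, Man1a2 and Stt3a). The labels do not say whether the numbers pair the mice, and the main tests treated them as unpaired. Deviations of same-numbered libraries correlated at 0.0525, -0.103, 0.022 and 0.104, which cannot settle whether mice were paired. Of pair ratios, differences without each library in turn were 1 to 1.28 (Mgat4a over Mgat4b), 1.51 to 1.91 (Mgat3 over Mgat1), -1.23 to -0.97 (Fut8 over Mgat3) and -0.52 to -0.40 (Galnt2 over Galnt1); all lost the call, because 8 libraries allow no p below 0.0286 or 0.0357 before adjustment. B4galt1 over B4galt5 ranged from -0.14 to 0.22, negative without OGT-deficient 2. With a pseudocount of 0.1 the difference was 2.59 for Mgat3 over Mgat1 and -1.91 for Fut8 over Mgat3, so their size rests on that choice. Depth limits the scarce genes most, such as Fut1, Mgat3 and Galnt12.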
